A study of Rattus norvegicus with 6 samples.

Results

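The genes of the cytosolic ribosomal proteins were examined in rat retina, in diabetic rats given a high dose of Compound Danshen Dripping Pill (the HCDDP group) and in untreated diabetic rats (the diabetic group). The members were the genes whose symbol starts with Rpl or Rps and a digit, or with Rplp, or is Rpsa, without the Rps6k kinases, and 195 of the 18166 genes with a probe row of their own met this rule. They held 55 conventional ribosomal protein genes, of which 37 belong to the large 60S subunit and 18 to the small 40S subunit. A further 94 were ribosomal-like genes, whose symbols end in l and a digit and which are named after a conventional gene that they resemble, and 43 carried a pseudogene symbol. The other 3 were Rpl3l, Rps4y2 and Rps19bp1.

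All rats were male Sprague-Dawley rats made diabetic with a high fat diet and streptozotocin, so both groups carried the diet and the toxin. The HCDDP group received 0.4 g/kg/d of the pill by gavage for 12 weeks, and the diabetic group received saline. Each group had 3 Affymetrix Rat Gene 2.0 ST arrays of retinal RNA. The labels give an age of 17 weeks for both groups, while the feeding and treatment periods in the methods add up to a greater age, and arrays of rats without diabetes were not analysed here. Whether an array held RNA from 1 rat or from a pool is not stated in any source, and the p-values then describe the variation between RNA samples, part of which may be technical.

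A ribosome joins a small subunit, which reads the mRNA, to a large subunit, which forms the peptide bonds. Each ribosomal protein is needed in about equal number, and the mRNAs of most of them begin with a run of pyrimidines, the 5′ TOP element, through which mTORC1 controls their translation. In the retina, photoreceptors renew a part of their outer segments every day and make protein at a high rate. The genome holds many processed copies of ribosomal protein genes, and a short array probe may bind the RNA of a gene and of its copies alike.

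The start region of the conventional genes is shown because it sets them apart in sequence from most ribosomal-like genes on the same array. The sequences, from RefSeq on the build GRCr8, run from 40 bases before the annotated transcription start to 20 after it, and capitals mark CTTTC or CTTCC, the short pyrimidine runs searched for. Rpl29 and Rpl34 were the 2 conventional genes that passed the threshold used below, Rps14 was the conventional gene with the largest positive difference, and Rplp2l3 and Rpl34l1 were ribosomal-like genes that passed it, shown beside Rplp2 and Rpl34, after which they are named.
Rpl29, chr8:115947603-115947662, plus strand: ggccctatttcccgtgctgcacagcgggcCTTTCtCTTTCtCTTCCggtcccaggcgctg
Rpl34, chr2:221962264-221962323, minus strand: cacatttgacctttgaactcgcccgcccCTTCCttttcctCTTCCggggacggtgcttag
Rps14, chr18:56498220-56498279, plus strand: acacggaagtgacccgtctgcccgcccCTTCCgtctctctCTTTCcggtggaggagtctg
Rplp2, chr1:205975881-205975940, plus strand: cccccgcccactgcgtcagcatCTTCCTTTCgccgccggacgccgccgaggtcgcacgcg
Rplp2l3, chr14:43287550-43287609, minus strand: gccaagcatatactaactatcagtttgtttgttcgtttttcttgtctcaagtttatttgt
Rpl34l1, chrX:66181095-66181154, plus strand: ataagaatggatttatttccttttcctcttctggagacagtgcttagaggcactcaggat

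Between 20 bases before and 30 bases after the start, 29 of the 45 conventional genes with a sequence (64.4%) held CTTTC or CTTCC on the strand of the gene, where 4262 of all 27457 promoters (15.5%) did. The share was 63.3% for 60S genes and 66.7% for 40S genes. Of 71 ribosomal-like genes with a sequence, 15 (21.1%) held the letters, near the share of all promoters. On the other strand, read as GAAAG or GGAAG, the shares were 8.89% for conventional genes, 25.4% for ribosomal-like genes and 16.6% for all promoters. The motifs overlap where CTTCC runs into CTTTC, as in Rplp2. The windows of Rpl34l1 and Rpl34 shared a longest run of 15 bases, against 5 bases for Rplp2l3 and Rplp2, and in 9 of 49 ribosomal-like genes whose own window and that of the namesake were in the table the longest shared run was at least 15 bases. The median log2 difference between the groups was −0.11 for the 29 conventional genes with the letters (range −0.81 to 0.54) and 0.09 for the 16 without (range −0.50 to 0.54), and the ranges overlapped almost entirely.

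The conventional ribosomal protein genes as a group showed little difference between the HCDDP group and the diabetic group. Their median log2 difference was −0.04, with a range from −0.81 to 0.54, and that of all genes tested was −0.01. Of the 55 genes, 23 were on the higher side in the HCDDP group and 32 on the lower side, and 40 differed by less than 0.3 on the log2 scale. The threshold was that of the study's methods, a fold change over 1.5 together with an unadjusted p under 0.05, the p being that of limma. No conventional gene passed it as higher, where 0.925% of all genes did, and 2 of the 55, Rpl29 and Rpl34, passed it as lower, where 2.28% of all genes did. In total that was 3.64% of conventional genes and 3.20% of all genes. These counts take the strongest row of each gene. Weaker rows of Rpl10 (1.11) and Rpl13 (0.77) passed as higher and a weaker row of Rpl6 (−0.69) as lower, as described below. After quantile normalization of the arrays, Rps14 and Rpl41 passed as higher and Rpl29 alone as lower, and after median centring 0 passed as higher and 3 as lower. That was 5.45% of conventional genes in each setting, against 3.19% and 3.14% of all genes.

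At an unadjusted p under 0.05 alone, 3 conventional genes were higher (Rps14, Rpl41 and Rps12) and 2 were lower, where 2.54% of all genes were higher and 3.51% lower. The 3 HCDDP arrays all lay above the 3 diabetic arrays for 2 conventional genes, Rps14 and Rps12, and below them for 0, where 6.43% of all genes were apart in the higher direction and 4.3% in the lower. After adjustment for all genes 0 of the 195 members passed by limma, with 23 at an unadjusted p under 0.05, and the lowest adjusted p of a member was 0.782. One gene of the series passed, which is 0.0055% of all genes. Every p given below without the word adjusted is unadjusted.

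**Figure D1:**
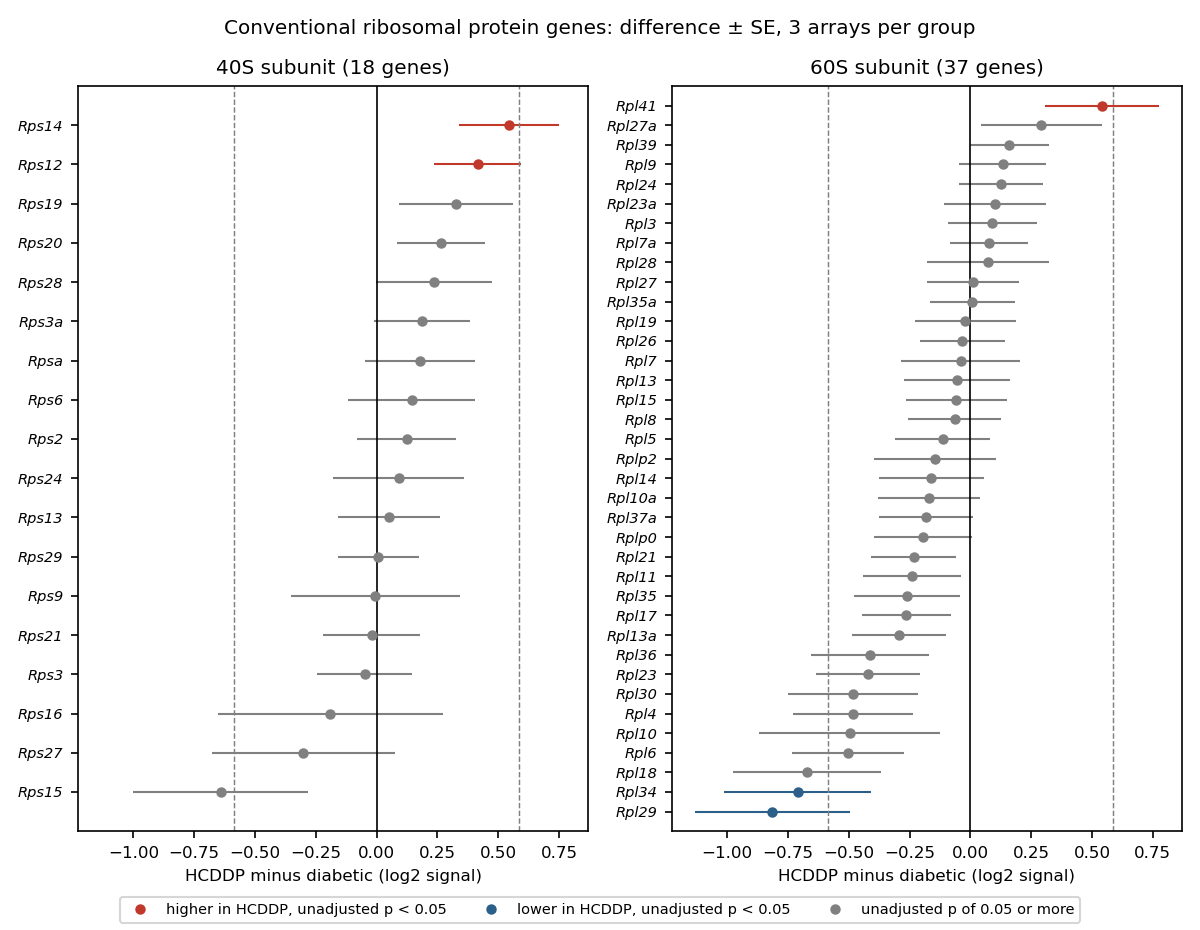
Log2 difference between the HCDDP group and the diabetic group for each conventional ribosomal protein gene, with its standard error from limma (3 arrays per group), for the 40S subunit on the left and the 60S subunit on the right. Dashed lines mark a fold change of 1.5. Most 40S genes lie right of 0 (12 of 18) and most 60S genes left of it (26 of 37), and Rpl29 and Rpl34 are the 2 genes past both the fold and the p.

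Rpl29, a protein of the 60S subunit that also occurs at the cell surface as a heparin-binding protein, had log2 signals of 9.59, 9.29 and 8.34 in HCDDP arrays 1, 2 and 3, against 10.05, 10.04 and 9.57 in diabetic arrays 1, 2 and 3. The groups overlapped, because HCDDP array 1 lay just above diabetic array 3, and HCDDP array 3 lay far below the rest. The log2 difference was −0.81 with a standard error of 0.32 (limma p = 0.0329, exact permutation p = 0.20). The gene no longer passed the threshold when HCDDP array 3 (−0.45), diabetic array 1 (−0.73) or diabetic array 2 (−0.74) was left out.
Rpl34, another 60S protein, had signals of 11.54, 11.03 and 10.65 in the HCDDP arrays and 12.14, 11.99 and 11.22 in the diabetic arrays. Diabetic array 3 lay inside the range of the HCDDP group. The log2 difference was −0.71 with a standard error of 0.30 (limma p = 0.0463, exact p = 0.20), and the gene did not pass when HCDDP array 2 (−0.69) or 3 (−0.50) was left out, or diabetic array 1 (−0.53) or 2 (−0.61).
Rpl18 (−0.67, limma p = 0.0562, exact p = 0.20) and Rps15 (−0.64, limma p = 0.111, exact p = 0.30), a protein of the 40S head, were past the fold and not past the p. With the replicate number as a block these genes passed too, so that 4 conventional genes were lower past the threshold and 0 higher, and 10 in place of 5 had a p under 0.05, while Rps12 no longer did. The block raised the calls over the whole series too, to 4.62% of all genes past the threshold and 13.0% at a p under 0.05, against 7.27% and 18.2% of conventional genes.

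Rps14, a protein of the 40S platform whose loss in human blood cells marks the 5q deletion syndrome, had signals of 10.21, 10.04 and 9.85 in the HCDDP arrays and 9.54, 9.15 and 9.78 in the diabetic arrays. Every HCDDP array lay above every diabetic array, by the narrowest margin between HCDDP array 3 and diabetic array 3. The log2 difference was 0.54 with a standard error of 0.21 (limma p = 0.0282, exact permutation p = 0.10, the smallest that 3 arrays against 3 allow). A weaker probe row of Rps14 was apart as well, with 9.51, 9.24 and 9.16 in the HCDDP arrays and 8.93, 8.57 and 9.07 in the diabetic arrays (log2 difference 0.45). Left out in turn, HCDDP array 1, HCDDP array 2 and diabetic array 2 each took the p of Rps14 over 0.05, to 0.094, 0.069 and 0.11.
Rps12, of the 40S beak region, had signals of 5.18, 5.26 and 5.50 in the HCDDP arrays and 5.02, 5.002 and 4.67 in the diabetic arrays (log2 difference 0.41, standard error 0.18, limma p = 0.0467, exact p = 0.10). Its p was over 0.05 without any 1 of the 6 arrays, from 0.051 without diabetic array 1 to 0.14 without HCDDP array 3. This row was weak, below the array medians of 6.14 to 6.37 in all 6 arrays, so its difference says little about Rps12.
Rpl41, which encodes the smallest ribosomal protein, had signals of 12.18, 11.75 and 11.85 in the HCDDP arrays and 11.82, 11.03 and 11.30 in the diabetic arrays. Diabetic array 1 lay between HCDDP arrays 2 and 1, so the groups overlapped (log2 difference 0.54, standard error 0.23, limma p = 0.0485, exact p = 0.20), and the p was under 0.05 in 1 of the 6 fits that leave out an array, without diabetic array 1 (0.0082).

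The count of conventional genes past the threshold depended on single arrays. It became 8 (14.5%) when HCDDP array 1 was left out, where 3.69% of all genes passed, and again 8 when diabetic array 3 was, where 10.9% of all genes passed. It was 1 without HCDDP array 2, HCDDP array 3 or diabetic array 1, where 3.23%, 1.78% and 1.99% of all genes passed, and 0 without diabetic array 2, where 1.94% did. Without both arrays numbered 3 it was 8 (14.5%, against 8.16% of all genes), with Rps14 and Rps19 higher and Rpl4, Rpl18, Rpl29, Rpl30, Rpl34 and Rps15 lower. The arrays numbered 3 had the narrowest spread of signals over all genes. The distance between the 10th percentile and its counterpart at the top was 4.48 log2 units in the HCDDP array and 4.45 in the diabetic one, against 4.92 to 5.19 in the other arrays, and the part of this spread in the results was not tested.

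The 40S genes lay mostly on the higher side and the 60S genes mostly on the lower side when the group means were compared. The 18 conventional 40S genes had a median log2 difference of 0.11, with 12 on the higher and 6 on the lower side in the HCDDP group, and the 37 conventional 60S genes had a median of −0.15, with 11 higher and 26 lower. These sets include weak rows, with both group means below the array medians. They are Rps6, Rps9, Rps12, Rps16, Rps24 and Rps27 of the 40S set, and Rpl5, Rpl15, Rpl26, Rpl27a, Rpl28 and Rpl37a of the 60S set. Each gene was set against its own mean over the 6 arrays, and the median of these deviations was taken over each subunit. The 40S median minus the 60S median was 0.19, 0.15 and 0.16 in HCDDP arrays 1, 2 and 3, against −0.16, −0.22 and 0.05 in diabetic arrays 1, 2 and 3. The groups did not overlap, diabetic array 3 came nearest to the HCDDP group, and the group means differed by 0.28. Without diabetic array 2 the difference was 0.18, and without any other single array it was 0.25 to 0.36. Between arrays of the same number the subunits mostly moved the same way. HCDDP array 1 lay above diabetic array 1 for 15 of the 18 40S genes and 21 of the 37 60S genes, and HCDDP array 3 lay above diabetic array 3 for 4 of 18 and 4 of 37. Only between the arrays numbered 2 did most 40S genes lie higher (14 of 18) and most 60S genes not (17 of 37). This contrast was chosen after the values were seen and is given without a test.

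The same contrast was also taken in genes that the conventional rows do not hold. For 13 conventional proteins, 7 of the 40S and 6 of the 60S subunit, the array has rows that name the gene together with a copy. On these rows the 40S median minus the 60S median was 0.24, 0.07 and 0.15 in the HCDDP arrays and −0.26, −0.45 and 0.04 in the diabetic arrays, again apart. In the ribosomal-like genes, 28 of them of 40S and 66 of 60S type, it was 0.12, 0.07 and 0.09 in the HCDDP arrays and 0.03, −0.24 and −0.04 in the diabetic arrays. These rows can bind RNA of the same genes as the conventional rows and come from the same arrays, so they are no independent samples.

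**Figure D2:**
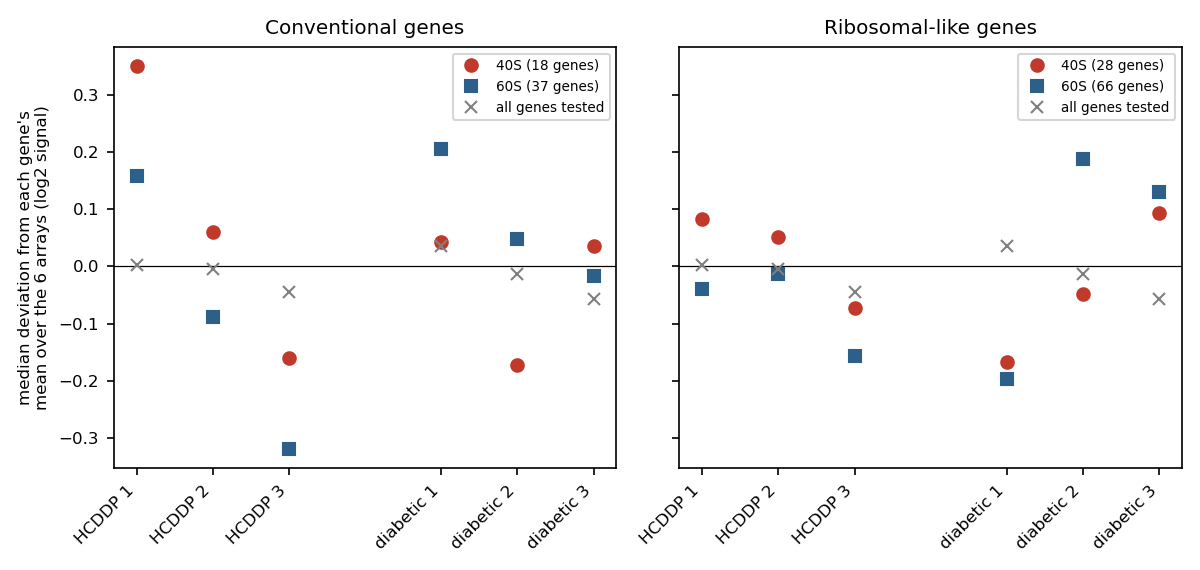
Median deviation of 40S and 60S genes from each gene's own mean over the 6 arrays, in log2 signal, by array, for conventional genes on the left and ribosomal-like genes on the right, with the median of all 18166 genes as crosses. In each of the 3 HCDDP arrays the 40S conventional median lies above the 60S median, and in diabetic arrays 1 and 2 it lies below.

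The arrays of the HCDDP group differed among themselves by more than the groups did. The median deviation of the conventional genes was 0.20, −0.03 and −0.29 in HCDDP arrays 1, 2 and 3, against 0.13, −0.05 and −0.00406 in the diabetic arrays, while the median of all genes stayed between −0.06 and 0.04. HCDDP array 1 was the highest and HCDDP array 3 the lowest of its group for 43 of the 55 genes, HCDDP array 3 was the lowest of all 6 for 31, and HCDDP array 1 the highest of all 6 for 25. The 954 genes of the series with a mean signal over 9 were also lowest in HCDDP array 3, at −0.19, with 0.01 in both other HCDDP arrays and 0.11, 0.15 and −0.09 in the diabetic arrays. Among the 36 conventional genes with a signal that strong, the median log2 difference was −0.02, against −0.10 for all 954. In bulk retina, fewer cells of a type and less RNA per cell cannot be told apart.

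By their place in the 60S subunit, no list passed the threshold with more than the 2 genes already named. One list held Rpl3, Rpl4, Rpl8, Rpl10, Rpl17, Rpl23 and Rpl39, most of them near the peptidyl transfer centre or the tunnel. It had a median of −0.26 with 0 of 7 past a p of 0.05. This list holds Rpl4, which lines the exit tunnel, at 11.28, 10.89 and 10.75 in the HCDDP arrays against 11.56, 11.81 and 10.998 in the diabetic arrays (log2 difference −0.48, limma p = 0.0842, exact p = 0.20). The 4 measured proteins of the tunnel exit had a median of −0.03. Among them Rpl26 had a weak row, with means of 4.09 in the HCDDP group and 4.13 in the diabetic group. Of the stalk, which recruits the elongation factors, Rplp0 had a log2 difference of −0.19 (standard error 0.20) and Rplp2 of −0.15 (standard error 0.25). Of the 5S particle, which holds Mdm2 when assembly stalls, Rpl5 had −0.11 and Rpl11 −0.24, each with a standard error of 0.20. The row of Rpl5 was weak, with means of 3.90 in the HCDDP group and 4.02 in the diabetic group. This is far below the array medians of 6.14 to 6.37, so its difference says little about Rpl5. Other 60S proteins, 21 of 25 measured, had a median of −0.16 and held the 2 lower calls.

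In the 40S subunit 3 lists had positive medians, and their levels overlapped between the groups. Rps2, Rps3 and Rps3a, listed together, had a median of 0.12. The 3 listed and measured of the platform and mRNA exit had 0.24, and the 5 measured of the head and beak 0.26. The 7 measured of the rest, with Rps9 among them, had −0.00469. The median deviation of the head and beak list was −0.09 to 0.17 in the HCDDP arrays and −0.10 to −0.02 in the diabetic arrays, and this list also held Rps15, whose difference of −0.64 was the largest in size of these 3 lists. One gene of the platform, Rps14, and 1 of the head and beak, Rps12 with its weak row, had a p under 0.05. Rps19, at the 40S head, had signals of 10.18, 9.82 and 9.63 in the HCDDP arrays and 9.65, 9.15 and 9.85 in the diabetic arrays (log2 difference 0.33, limma p = 0.199, exact p = 0.50), and the groups overlapped. Rpsa, which is also the laminin receptor, had 0.18 and Rps6, the target of the S6 kinases, 0.14, neither beyond its standard error of 0.23 and 0.26. The row of Rps6 was weak, with means of 5.17 in the HCDDP group and 5.02 in the diabetic group, below the array medians. Over the 5 measured genes that cause Diamond-Blackfan anaemia in humans, Rps19, Rps24, Rpl5, Rpl11 and Rpl35a, the median was 0.01. Of these, 3 lay above the array median in all 6 arrays, and the rows of Rpl5 and Rps24 did not. Of the genes often used as references for quantitative PCR, Rplp0, Rpl13a (−0.29, exact p = 0.20) and Rpl19 (−0.02, exact p = 1.0) were measured and did not pass.

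Not every protein could be read on a row of its own. Of 76 listed conventional proteins, 54 had such a row, 13 were named only on rows shared with a copy, and 9 were on no row named here, among them Rps27a, Rps4x and Rpl32. Rpl41 is outside those lists. For Rps24 and Rpl37a the row of their own, used here, was far weaker than a row with several symbols. Rps24 had group means of 6.07 (HCDDP) and 5.98 (diabetic) on its own row. On the shared row both means were 11.11, with a log2 difference of 0.00259. Rpl37a had 5.47 and 5.65 on its own row and 11.53 and 11.79 on the shared row, where the log2 difference was −0.25. On the shared rows, 1 of 32 passed the threshold, where 5.17% of all probe rows did. It was a weak row of Rpl12 and a copy, with 5.44, 5.41 and 5.51 in the HCDDP arrays against 6.81, 6.59 and 5.48 in the diabetic arrays. Diabetic array 3 lay within the HCDDP range, and the strongest row of Rpl12, which sits at the base of the stalk, had a log2 difference of −0.52 (standard error 0.24). The row of Rplp1, a stalk protein, also names Rplp1l1 and a further gene and was weak. It was apart in the lower direction (5.31, 5.64 and 5.28 against 5.98, 5.88 and 5.84), as was a weak row of Rpl12 with Rpl12l2. Both rows of Rps18 were apart in the higher direction, the stronger one with 10.65, 10.55 and 10.30 in the HCDDP arrays and 10.08, 10.03 and 10.21 in the diabetic arrays. Of all genes with a row of their own, 10.7% were apart in either direction.

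Of the 94 ribosomal-like genes 9 passed the threshold, and 4 were higher (Rplp2l3, Rpl23al2, Rpl37al2 and Rps18l2) and 5 lower (Rpl28l1, Rpl29l1, Rpl34l1, Rpl36Al2 and Rpl36l6), together 9.57%, where 0.925% of all genes were higher and 2.28% lower. The difference from the share of conventional genes, 3.64%, was not tested, and its order depended on the arrays. The shares were 9.57% of ribosomal-like and 14.5% of conventional genes without HCDDP array 1, 14.9% and 14.5% without diabetic array 3, and 10.6% and 14.5% without both arrays numbered 3. At a p under 0.05 there were 15 (16.0%), and the groups did not overlap for 12 (12.8%), against 6.05% and 10.7% of all genes. The balance of higher and lower calls was 5 to 4 after median centring and 5 to 3 after quantile normalization. In these settings 9.57% and 8.51% of ribosomal-like genes passed, against 3.14% and 3.19% of all genes. Their median log2 difference was −0.10, with a range from −1.31 to 2.27. They also varied more from array to array. The median standard deviation within groups was 0.36 log2 units for ribosomal-like genes, 0.27 for conventional genes and 0.25 for all genes. RefSeq lists 88 of the 94 as protein coding, and none of them is shown here to make a protein.

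**Figure D3:**
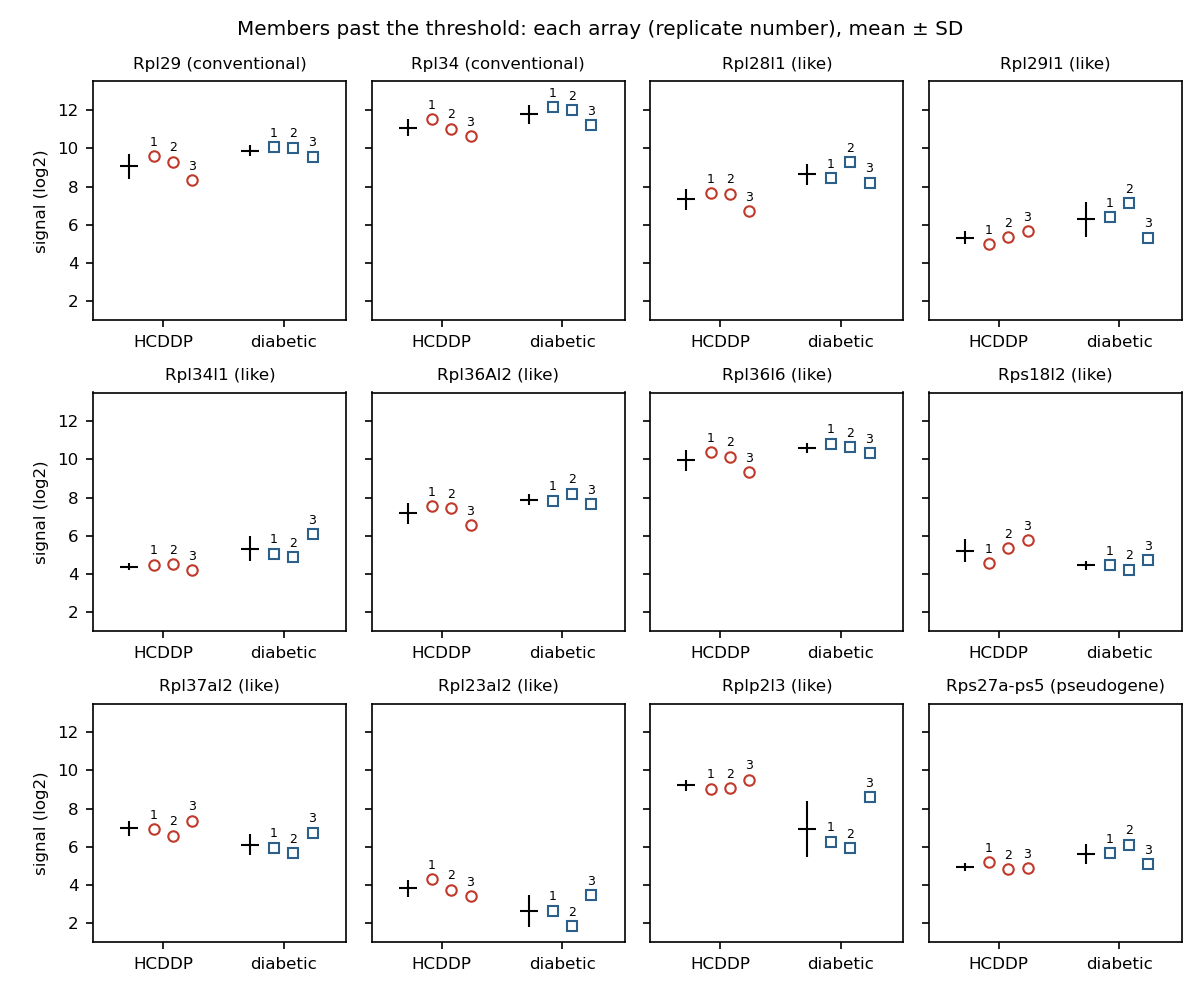
Log2 signal of the 12 members past the threshold, with 1 panel per gene, HCDDP arrays as circles, diabetic arrays as squares, the replicate number above each point and the mean with its standard deviation as a cross. The groups do not overlap in 4 of the 12 panels (Rpl28l1, Rpl34l1, Rpl36Al2 and Rplp2l3).

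Rplp2l3, named after the stalk protein gene Rplp2, had the largest difference of all members. Its signal was 9.04, 9.07 and 9.52 in the HCDDP arrays, against 6.28, 5.94 and 8.61 in the diabetic arrays. Diabetic array 3 stood far above the other diabetic arrays and just below the HCDDP group. The mean was 9.21 ± 0.27 in the HCDDP group and 6.94 ± 1.45 in the diabetic group (SD, n = 3 each), a log2 difference of 2.27 (standard error 0.61, limma p = 0.0054, adjusted p = 0.782, exact permutation p = 0.10). Without diabetic array 3 the difference was 3.10, and this gene and Rpl29l1 then passed an adjusted p of 0.05, the lower of the 2 adjusted p being 0.00161, but so did 311 genes of the series. Without both arrays numbered 3 it was 2.95, and Rplp2l3 was the 1 member past an adjusted p (0.0221), among 7 genes of the series.
A second row names Rplp2l3 alone, and it pointed the other way. Its signal was 8.04, 7.64 and 7.29 in the HCDDP arrays and 7.98, 8.39 and 8.25 in the diabetic arrays, a log2 difference of −0.55 (standard error 0.23, limma p = 0.040, exact p = 0.20). Rplp2 itself had signals of 9.95, 9.56 and 9.25 in the HCDDP arrays and 10.06, 9.32 and 9.81 in the diabetic arrays, and its groups overlapped.

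Of the other higher genes, Rpl23al2 had signals of 4.30, 3.76 and 3.41 in the HCDDP arrays and 2.65, 1.83 and 3.48 in the diabetic arrays. These were among the weakest signals of the array, as the 10th percentile of all genes was 3.42 to 3.84 in the diabetic arrays, and diabetic array 3 overlapped with the HCDDP group (log2 difference 1.17, limma p = 0.019, exact p = 0.20). The call was lost without HCDDP array 1 (0.93) or diabetic array 2 (0.76).
Rpl37al2 had 6.93, 6.59 and 7.37 in the HCDDP arrays and 5.96, 5.66 and 6.74 in the diabetic arrays (log2 difference 0.84, limma p = 0.0245, exact p = 0.20), and it was lost without HCDDP array 3 (0.64) or diabetic array 1 (0.77) or 2 (0.61). Rps18l2 had 4.56, 5.36 and 5.77 against 4.46, 4.22 and 4.71 (log2 difference 0.77, limma p = 0.0339, exact p = 0.20), and it was lost when HCDDP array 2 (0.70) or 3 (0.50) was left out, or diabetic array 1 (0.76) or 2 (0.64). In both genes diabetic array 3 was the highest of its group and lay inside the HCDDP range.

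Rpl28l1, which RefSeq lists as a pseudogene, was the ribosomal-like gene with the lowest difference, and its call did not depend on any 1 array. Its signal was 7.66, 7.63 and 6.70 in the HCDDP arrays and 8.44, 9.27 and 8.19 in the diabetic arrays, so the groups were apart. The mean was 7.33 ± 0.54 in the HCDDP group and 8.63 ± 0.56 in the diabetic group (SD, n = 3 each), a log2 difference of −1.31 (standard error 0.35, limma p = 0.00498, adjusted p = 0.782, exact p = 0.10). It passed under all 15 alternatives run, with differences from −1.53 to −0.99. Rpl28, its namesake, had 0.07 on a weak row. The means of that row were 5.43 in the HCDDP group and 5.36 in the diabetic group, below the array medians.
Rpl34l1 had 4.48, 4.51 and 4.19 in the HCDDP arrays and 5.07, 4.87 and 6.07 in the diabetic arrays, also apart (log2 difference −0.94, limma p = 0.0141, exact p = 0.10). It was lost without HCDDP array 3 (−0.84) or diabetic array 3 (−0.57). Rpl34 and Rpl34l1 were thus both lower past the threshold, as were Rpl29 and Rpl29l1. The row of Rpl34l1 was weak, below the array medians. The other measured copies of Rpl29 were on the higher side, Rpl29l2 with 0.41, Rpl29l4 with 0.20 and the pseudogene Rpl29-ps14 with 0.41.

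Rpl29l1 had 4.98, 5.37 and 5.66 in the HCDDP arrays and 6.39, 7.14 and 5.33 in the diabetic arrays, and diabetic array 3 lay inside the HCDDP range (log2 difference −0.95, limma p = 0.04996, exact p = 0.30). It no longer passed without any 1 of HCDDP arrays 1 to 3 (−0.77, −0.97 and −1.11) or of diabetic arrays 1 and 2 (−0.90 and −0.52).
Rpl36Al2 had 7.56, 7.44 and 6.56 in the HCDDP arrays and 7.83, 8.20 and 7.66 in the diabetic arrays, apart by a narrow margin (log2 difference −0.71, limma p = 0.0356, exact p = 0.10), and was lost without HCDDP array 3 (−0.40) or diabetic array 1 (−0.74) or 2 (−0.56). Rpl36l6 had 10.38, 10.14 and 9.32 against 10.82, 10.64 and 10.34, with HCDDP array 1 inside the diabetic range (log2 difference −0.65, limma p = 0.0479, exact p = 0.20), and was lost when HCDDP array 2 (−0.75) or 3 (−0.34) was left out, or diabetic array 1 (−0.54) or 2 (−0.63). With all arrays 9 ribosomal-like genes passed the threshold, and the count was 5 (5.32%) when HCDDP array 3 or diabetic array 2 was left out, where 1.78% and 1.94% of all genes passed, and 14 (14.9%) when diabetic array 3 was, where 10.9% of all genes did.

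Among the 12 ribosomal-like genes whose groups were apart were some with a p under 0.05 and a difference under the fold. Rps15al4 had 9.01, 8.96 and 8.89 in the HCDDP arrays and 8.08, 8.28 and 8.80 in the diabetic arrays (log2 difference 0.57, limma p = 0.0263, exact p = 0.10). Rps12l5 had 5.42, 5.55 and 5.56 in the HCDDP arrays and 5.84, 6.03 and 6.30 in the diabetic arrays (log2 difference −0.55, limma p = 0.0136, exact p = 0.10), while Rps12, its namesake, was on the higher side on a weak row. Rpl29l2, Rpl10l1 and Rplp1l3 were apart in the higher direction with 0.41, 0.44 and 0.46, and Rpl18al1 in the lower direction with −0.48.
Of paralogs with an established gene of their own, Rpl22l1, Rpl7l1, Rpl3l and Rps4y2 were measured and none passed. Rpl22l1, which can take the place of Rpl22 in mouse ribosomes, had 4.81, 4.65 and 4.86 in the HCDDP arrays and 5.03, 4.96 and 5.18 in the diabetic arrays, apart with a log2 difference of −0.28 (limma p = 0.114, exact p = 0.10). Rpl3l, the muscle form of Rpl3, had −0.13, Rpl7l1 −0.45 and Rps4y2 −0.37, all with overlapping groups.

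The sign of a ribosomal-like gene and of its namesake was the same in 33 of 55 genes whose namesake had a row of its own. The families were small, 46 in all with at most 6 ribosomal-like genes each, and the largest was that of Rpl23a. Among pseudogene symbols the median log2 difference was 0.08. Of the 43, 1 (2.33%) passed the threshold, where 3.20% of all genes did. It was Rps27a-ps5, at 5.19, 4.83 and 4.87 in the HCDDP arrays against 5.68, 6.12 and 5.10 in the diabetic arrays (log2 difference −0.67, limma p = 0.0328, exact p = 0.20). Its groups overlapped, and the call was lost when HCDDP array 2 (−0.60) or 3 (−0.62) was left out, or diabetic array 1 (−0.65) or 2 (−0.43).

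**Figure D4:**
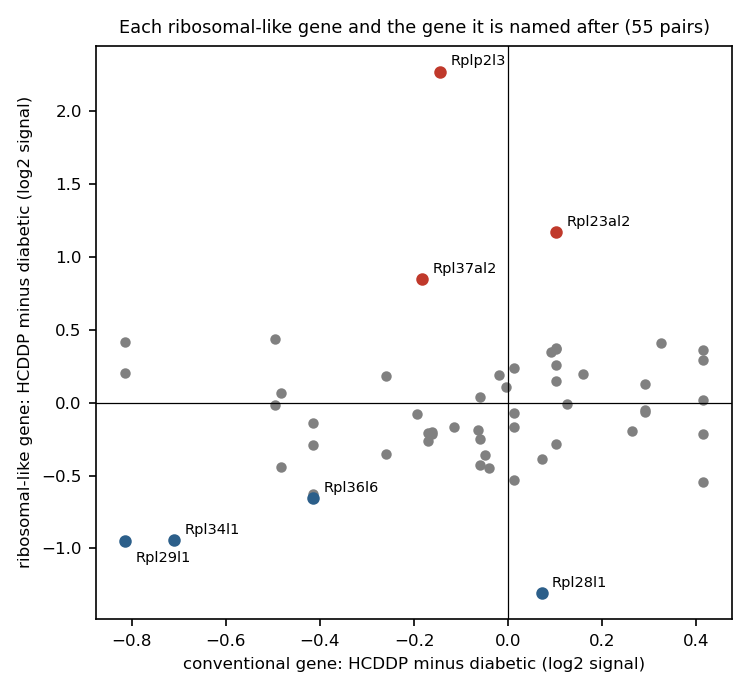
Log2 difference between the HCDDP group and the diabetic group for 55 ribosomal-like genes (vertical axis) and for the conventional gene each is named after (horizontal axis). Named points are those past the threshold, red where higher and blue where lower in the HCDDP group. Rpl29l1, Rpl34l1 and Rpl36l6 lie with their namesakes on the lower side, while Rplp2l3, Rpl37al2 and Rpl28l1 lie on the other side of 0 from theirs.

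Rows that name the same gene gave a check on single rows. Of the 22 member genes with several rows, 56 in all, 13 had rows whose log2 differences lay within 0.2 of each other, with a median gap of 0.13, and 3 had a gap over 0.6. The 6 rows of Rpl39, a small protein of the tunnel exit, ran from 0.07 to 0.20, and 2 of them held identical values, so they are not separate measurements. In 7 of the 22 genes the rows differed in sign. Past the threshold were 4 rows, 3 of them higher, in the genes with wide gaps (Rplp2l3, Rpl10 and Rpl13), and 1 lower, in Rpl6. For comparison, 3.20% of all genes passed on their strongest row, and 5.17% of all probe rows passed in a fit over all rows.
The lower row of Rpl6, a 60S protein, had signals of 9.49, 9.38 and 8.94 in the HCDDP arrays and 9.88, 10.29 and 9.69 in the diabetic arrays, apart, with a log2 difference of −0.69 (limma p = 0.0147, exact p = 0.10). Its stronger row had −0.50 (limma p = 0.0588, exact p = 0.20), the same sign.
Rpl10, which completes the 60S subunit, had 9.74, 9.85 and 8.63 in the HCDDP arrays and 9.32, 10.37 and 10.02 in the diabetic arrays on its strongest row, a log2 difference of −0.50 (limma p = 0.219, exact p = 0.40). Its other row had 8.98, 9.07 and 9.07 in the HCDDP arrays and 7.89, 7.45 and 8.47 in the diabetic arrays, apart, with a log2 difference of 1.11 (limma p = 0.00213, exact p = 0.10). The paper lists Rpl10 among its differentially expressed genes, without naming a row or a direction. For Rpl13 the stronger rows had −0.06 and −0.01, and the weakest had 7.20, 7.62 and 7.26 in the HCDDP arrays against 6.38, 6.27 and 7.14 in the diabetic arrays, apart, with 0.77 (limma p = 0.0161, exact p = 0.10). Which transcripts these rows bind was not tested, since probe sequences were not used here.

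**Figure D5:**
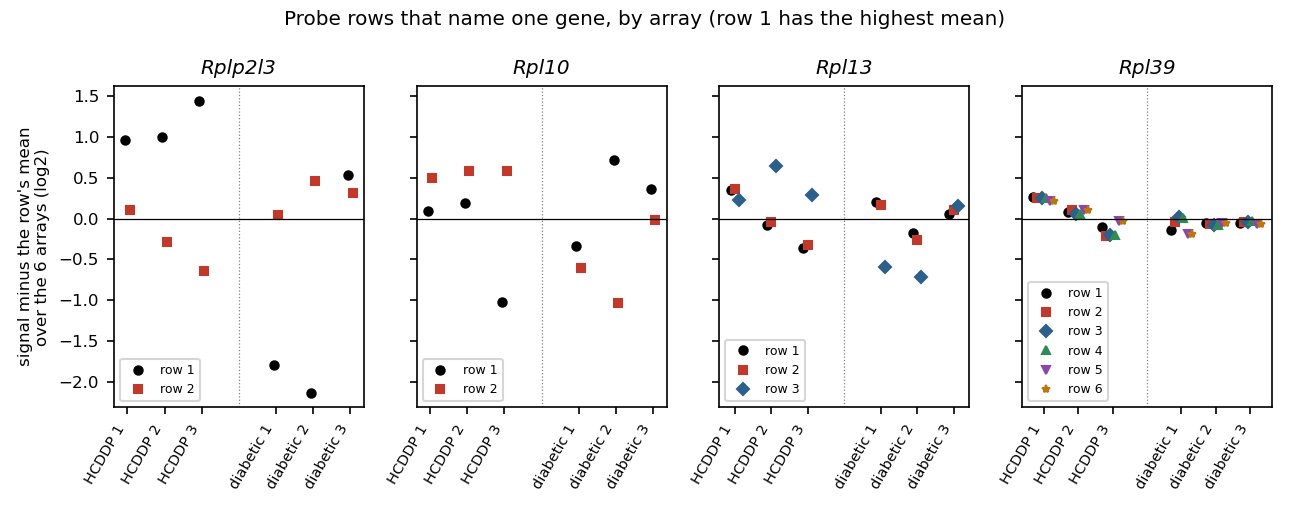
Signal minus the row's own mean over the 6 arrays, in log2 units, for every row that names Rplp2l3, Rpl10, Rpl13 or Rpl39 alone, by array with the HCDDP arrays on the left. The 6 rows of Rpl39 lie together in each array, while the rows of Rplp2l3 and Rpl10 move in opposite directions between the groups.

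The rest of the translation machinery showed few calls. Of the 36 measured ribosome biogenesis genes and the 23 measured initiation factors 0 passed the threshold, with medians of −0.06 and −0.03. Of 9 elongation and poly(A)-binding genes 1 passed, as lower, where 2.28% of all genes did. It was Eef1b2, an exchange factor of eEF1A, at 6.24, 6.42 and 5.64 in the HCDDP arrays and 6.62, 6.81 and 6.62 in the diabetic arrays (log2 difference −0.59, standard error 0.22). Of 14 genes of mTORC1 and TOP control 0 passed, and 3 had a p under 0.05 and were apart. Over all genes, 6.05% had a p under 0.05 and 10.7% were apart, and the difference from these shares was not tested. They were Ddit4, an inhibitor of mTORC1, and Tial1, which binds TOP mRNAs in human cells, with differences of 0.47 and 0.39, and Mknk1, a kinase of eIF4E, with −0.54. Of 70 measured mitochondrial ribosomal proteins, 2 passed as lower, where 2.28% of all genes did. They were Mrpl46 at −0.74 and Mrpl53 at −0.67, and the median of the list was −0.06. The cytosolic ribosomal proteins outside the symbol rule, Fau and Rack1, had −0.22 and 0.17.

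The tissue was checked against its markers. All 8 measured rod photoreceptor markers lay above the array median in all 6 arrays, with none past the threshold and a median log2 difference of −0.20. The medians of the other neural retina lists were also below 0, at −0.41 for 7 cone markers, all of them on the lower side, −0.33 for 5 markers of Müller glia, −0.33 for 5 of bipolar cells and −0.28 for 8 of ganglion and amacrine cells. Of all these genes 1 passed the threshold, as lower, where 2.28% of all genes did. It was the bipolar marker Pcp2 (−1.18), and the median deviation of each list overlapped between the groups. Of 8 enterocyte markers, 7 were lower past the threshold, where 2.28% of all genes were, and 0 of the 8 lay above the array median in all 6 arrays. The median deviation of that list was −0.61 to −0.57 in the HCDDP arrays and 0.23 to 0.85 in the diabetic arrays. Of 8 markers of corneal and scleral stroma, 4 were lower, with −0.39 to −0.19 in the HCDDP arrays and 0.06 to 0.42 in the diabetic arrays. Both lists hold genes that the paper reports as differentially expressed on these same arrays. They are Fabp1, Fabp2, Apob, Si and Reg3b for enterocytes, and Kera, Fmod, Prelp and Chad for stroma. The calls of these lists are therefore no independent check. These lists separate the groups, as the gap between the 40S and 60S medians does, and their part in the results on ribosomal protein genes was not tested.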

How the data were processed

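Retinal RNA was labelled with biotin and hybridized to Affymetrix Rat Gene 2.0 ST arrays, and per the study's methods the scans were processed with Expression Console Software 1.41. The authors deposited log2 signals, 1 for each array and probe row (36685 rows). The sources used here do not give the background correction, normalization and summarisation. No value was changed before the fit, so any normalization of the arrays by the authors is kept in every difference. A gene annotation of the platform named 18511 rows with exactly 1 symbol, and the row with the highest mean was kept for each of 18166 genes. Rows with several symbols (575) are reported only where they name a member, and 17599 rows without a symbol are unnamed here. Weak rows were kept.

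The groups were compared over all 18166 genes with lmFit and eBayes of limma 3.58.1 in R 4.3.3, with Benjamini-Hochberg adjustment. Exact p for single genes are two-sided and come from a permutation test over all 20 ways to divide the arrays. Arrays give no counts, so their number, 3 per group, limits the precision. The fit was tested on simulated data with known differences. The members and lists were chosen with earlier results of these data known. Named genes were members past the threshold or with a p under 0.05, the conventional and ribosomal-like members with the most extreme differences, the central proteins of each subunit, the established paralogs, and of other lists the members past the threshold or with the smallest p. Replicate numbers are not explained by any source, but deviations from the group means correlated between same-numbered arrays of the groups (0.274, 0.292 and 0.445 over all genes), so the numbers were taken to pair the arrays in an alternative fit with a block.

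The alternatives were the methods' t-test, trend and robust moderation, median centring, quantile normalization, all probe rows, genes above the median signal, the mean of a gene's rows, the block, and each array, or both arrays numbered 3, left out. Sequences came from RefSeq promoters (GRCr8). Tables and figures were made with pandas 2.3.3 and matplotlib 3.10.9 in Python 3.11.15.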

Additional observations from a re-analysis of the deposited data

How the results depend on the processing

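Over 41 named members and 15 alternatives, a difference kept its direction and its side of the threshold 489 times, lost the call 56 times, gained it 40 times and changed sign 14 times. The count of conventional genes past the threshold, 2 with all arrays, was 1 over all probe rows, 8 without both arrays numbered 3, 0 by the methods' t-test and 4 with the replicate block, and leaving out 1 array gave 0 to 8. At an unadjusted p under 0.05 the count of 5 became 2, 9, 1 and 10 in the same settings, and 0 to 9 without 1 array. The count of conventional genes whose groups were apart, 2, became 25 without both arrays numbered 3 (45.5%, against 46.7% of all genes), 1 among genes above the median signal, 5 after median centring, 8 after quantile normalization (14.5%, against 14.7% of all genes) and 3 to 17 without 1 array (5.45% to 30.9%, against 15.9% to 37.5% of all genes), since fewer arrays lie apart more easily. The count of ribosomal-like genes past the threshold, 9, was 5 among genes above the median signal (11.6%, against 4.19% of all genes there). It was 1 by the methods' t-test (Rpl28l1), a share of 1.06% against 1.079% of all genes, so the higher share was absent there. It was 5 to 14 without 1 array. The median of ribosomal-like genes, −0.10, became 0.0766 without both arrays numbered 3 and −0.21 to −0.03 without 1 array. The median of conventional genes, −0.04, ran from −0.17 to 0.10 without 1 array, and the 40S minus 60S difference of 0.28 from 0.18 to 0.36. Among conventional and ribosomal-like genes the block ended no call past the threshold and added Rpl18, Rps15 and Rpl36l2.

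The changes of sign were in genes with differences near 0 or with discordant rows. Rpl10 became 0.30 as the mean of its rows. Rpl19 became 0.11 without both arrays numbered 3, 0.0125 after median centring and 0.12 after quantile normalization, and ran from −0.19 to 0.11 without 1 array. Without both arrays numbered 3, Rplp2 became 0.0625. Without 1 array Rplp2 ran from −0.35 to 0.0229, Rpl3l from −0.26 to 0.0629, Rpl5 from −0.22 to 0.0388 and Rps6 from −0.10 to 0.34. The cause was not tested.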
